A study of Mus musculus with 6 samples.

Results

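This report describes 84 genes that encode subunits of the oxidative phosphorylation system from the nuclear genome, in cultured mouse intestinal epithelium treated with tunicamycin. They were chosen by symbol alone, as the genes named Nduf followed by a, b, c, s or v and a number, Cox4 to Cox8, Uqcr, Atp5 or Sdha to Sdhd, without pseudogenes, and are 84 of the 27998 genes counted. By complex they comprise 35 genes of complex I, 4 of complex II, 8 of complex III, 19 of complex IV with Ndufa4 and Ndufa4l2, and 16 of complex V. The 2 remaining symbols, Cox7a2l and Atp5s, fit the naming rule but encode no subunit of a single complex and were counted apart.

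Single-cell RNA sequencing with the 10x Genomics 3' V2 chemistry was carried out on differentiated monolayers from intestinal organoids of mice with a Rosa26-floxed STOP-Cas9 allele, crossed to cmv-cre on B6. All 3 groups carried this genotype and held 2 libraries each: DMSO vehicle, tunicamycin (Tm) at 0.5 µg/ml for 13 h, and Tm at the same dose for 25 h, harvested together on the morning of differentiation day 4. The tissue is tagged small intestine while the growth protocol starts from colonic spheroids, which the sources used here do not settle, and the age of the animals and the number of animals behind the cultures are not given in them. The series text calls the 2 libraries biological replicates. The series title asks which transcriptional programs decide the outcome of endoplasmic reticulum stress, which tunicamycin causes by blocking N-linked glycosylation.

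Oxidative phosphorylation makes ATP at the inner mitochondrial membrane. Complexes I to IV pass electrons from NADH and succinate to oxygen and, except for complex II, pump protons, and complex V uses the proton gradient to make ATP. The subunits come from the nuclear and the mitochondrial genome, and some nuclear ones have paralogues used in particular tissues, such as the heart and skeletal muscle forms Cox6a2 and Cox7a1. Absorptive enterocytes are rich in mitochondria.

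Libraries held between 537 and 1178 cells after filtering and between 9432005 and 19539013 unique molecular identifiers (UMIs), each a counted RNA molecule. The authors' own classes gave between 426 and 1046 enterocytes and between 75 and 109 goblet cells a library. The 8 goblet cell markers, such as Muc2 and Tff3, made up 7.96% to 19.7% of UMIs in the goblet class and 0.235% to 0.392% in the enterocyte class, while fibroblast and erythroid markers summed to 1 UMI or 0 in every library of both classes. The 10 enterocyte markers separated the classes less. They made up 0.679% and 0.656% of enterocyte UMIs in DMSO, beside 0.394% and 0.338% of goblet UMIs. Among these 10 markers, Aqp8 was at 0 UMIs in 5 of the 6 enterocyte libraries. The barcode sequences included 12 that occurred in more than a single library.

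In enterocytes the 84 genes took 4.99% and 4.99% of all UMIs in the DMSO libraries, 4.35% and 4.32% after 13 h, then 3.98% and 4.26% after 25 h. Every library treated with Tm lay below both DMSO libraries. In goblet cells, the mucus-secreting class, they took 2.73% and 2.92% of UMIs in DMSO, 2.87% and 2.86% after 13 h, then 2.79% and 2.95% after 25 h, so the 3 groups overlapped. The 8 goblet markers took 19.7% and 18.3% of goblet UMIs in DMSO, 11.4% and 12.2% after 13 h, then 7.96% and 9.60% after 25 h. A smaller marker share leaves a larger one for all other genes, and its part in the goblet shares was not tested. Counted per cell, enterocytes held 831 and 807 UMIs of these genes in DMSO, 765 and 776 after 13 h, then 725 and 830 after 25 h, and here the 25 h libraries lay on either side of a DMSO library. Goblet cells held 337 and 366 per cell in DMSO, 392 and 403 after 13 h, then 406 and 442 after 25 h, each Tm library above both DMSO libraries. The median of all UMIs in a goblet cell was also higher in each Tm library. It was 11664 and 11573 in DMSO, 12927 and 11997 after 13 h, then 13019 and 13438 after 25 h. In enterocytes it was 15652 and 14757, then 16302 and 16643, then 16256 and 17862. The part of this depth in the counts per cell was not tested. A share is relative to all RNA recovered from the cells, so less RNA of these genes and more of others cannot be told apart. The median share of UMIs from mitochondrial genes in an enterocyte was 8.84% and 8.80% in DMSO, 8.71% and 8.53% after 13 h, then 7.41% and 7.40% after 25 h, and its part in the shares above was not tested.

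**Figure D1:**
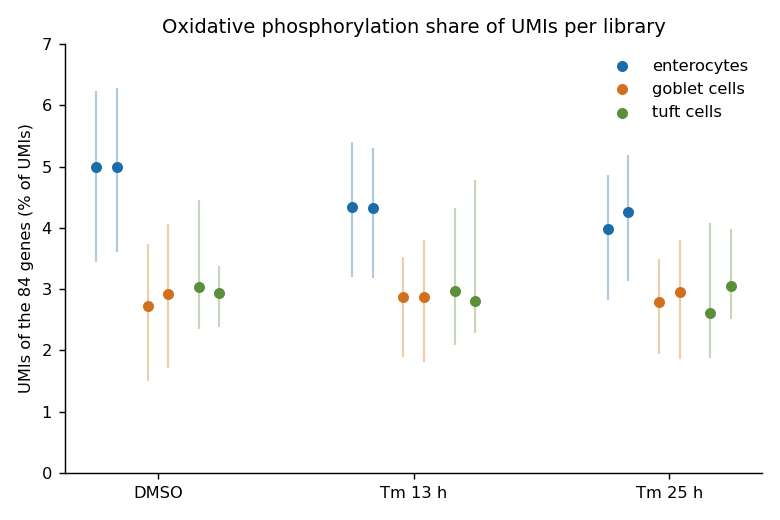
UMIs of the 84 genes as a percentage of all UMIs (y axis) in each library, by treatment (x axis) and cell class. Points are the share of the UMIs summed over a class in a library. Bars span the 10th to the 90th percentile of its cells. Enterocytes fell from 4.99% in DMSO to 3.98% and 4.26% at 25 h. Goblet cells lay between 2.73% and 2.95%, while the share of goblet markers in their UMIs fell.

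Changes of single genes were tested with edgeR's quasi-likelihood test on UMIs summed per library within a class, over 11145 genes in enterocytes and 7839 in goblet cells. A gene is said to rise or fall where its Benjamini-Hochberg adjusted p was under 0.05. The p-values measure the spread between 2 libraries a group. Levels are in CPM, the usual UMI count relative to the library's total, with trimmed-mean (TMM) scaling of library sizes. The SE given with a log2 fold change is an approximate standard error. It is the size of the change divided by the square root of the test's F statistic, and is rough where UMIs are few, as for Cox6a2. The 3' chemistry counts a molecule once whatever its length, so levels of different genes are compared only as shares of UMIs among paralogues. Another counted gene lies on the opposite strand of 25 of the 84 genes, among them Ndufs1, Ndufb2, Ndufb5, Ndufb6, Ndufb11, Ndufa3, Cox4i1, Cox6c, Cox6a2, Atp5a1, Atp5d and Atp5j, and the use of strand in counting was not stated. On the same strand, another counted gene overlaps 4 of the 84 genes, Ndufa13, Ndufb2, Ndufb8 and Cox4i1. Of the 84 genes, 78 passed the filter on low counts in enterocytes and 76 in goblet cells. Those left out in enterocytes were the paralogues Cox4i2, Cox6b2, Cox7b2, Cox8b, Cox8c and Ndufa4l2, whose levels were 0.301 CPM or less in each library, with Cox8b at 0 UMIs throughout. Cox6a2 and Atp5s were also left out in goblet cells.

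In enterocytes 61 of the 78 genes fell and 5 rose at 13 h, where 23.8% of all genes fell and 23.8% rose. At 25 h 64 fell and 7 rose, against 24.2% and 26.1% of all genes. The median log2 change of the 78 was -0.27 at 13 h and -0.31 at 25 h, beside 0.01 and 0.03 over all genes tested, so most falls were modest. In all, 58 genes fell at both times and 3 rose at both (Cox6a2, Atp5g2 and Atp5s). The 10 enterocyte markers moved in the same libraries: their summed share was 0.679% and 0.656% of enterocyte UMIs in DMSO, 0.490% and 0.469% after 13 h, then 0.370% and 0.369% after 25 h, with 7 of the 8 tested lower at each time. Their part in the fall of the respiratory genes was not tested. The number of risers was small and moved with single libraries, to 3 at 13 h without any 1 of the DMSO or 13 h libraries and to 4 at 25 h without DMSO replicate 1.

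**Figure D2:**
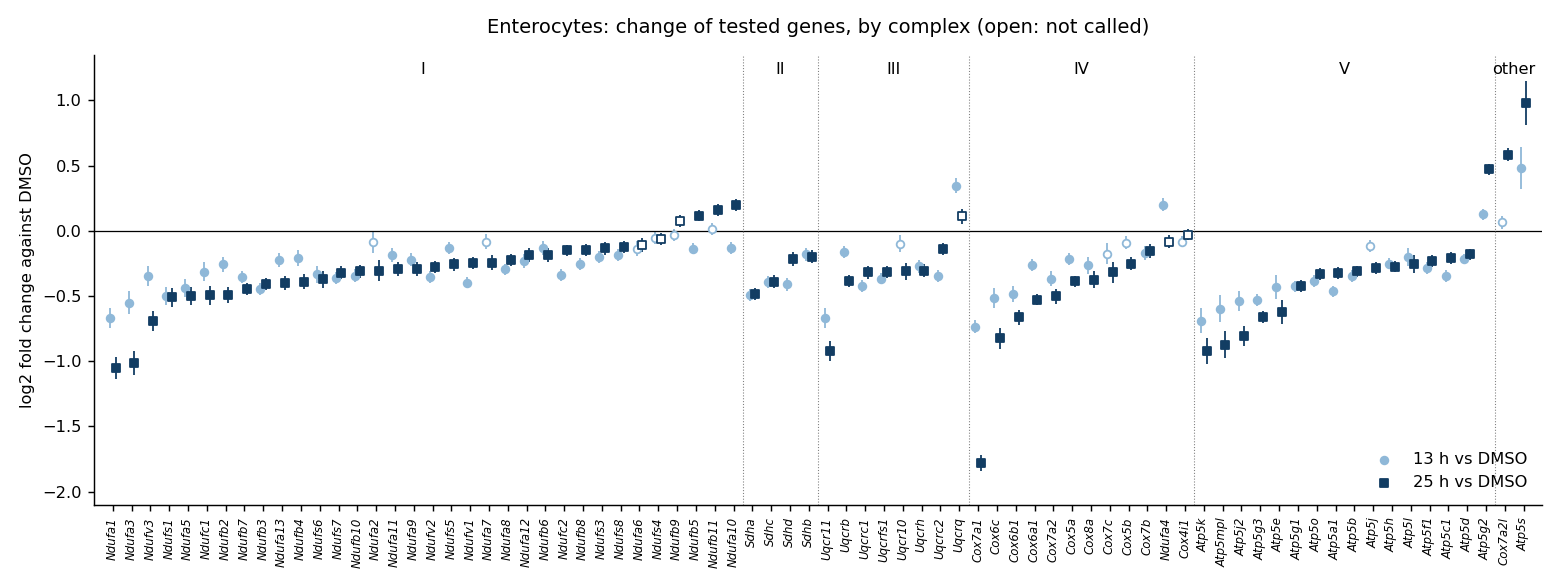
Log2 fold change against DMSO (y axis) of tested genes in enterocytes at 13 h (circles) and 25 h (squares), grouped by complex, with bars of 1 SE and open symbols for changes that did not pass the test. Cox6a2, which rose by 4.36 and 4.76, is outside the axis and not drawn, and 1 further gene is left out; most genes lie below 0 at both times, and Atp5g2, Cox7a2l and Atp5s lie above it.

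Complex I, the NADH dehydrogenase, had 29 of 35 genes lower and none higher at 13 h, and 28 lower and 3 higher at 25 h. Its 7 nuclear-encoded core genes (a split made after their values were seen), which carry the flavin and iron-sulfur centres, all fell at 13 h, by 0.19 to 0.50 on the log2 scale, and 6 of the 7 fell at 25 h. Ndufs1, the largest of the iron-sulfur subunits, was at 47.4 and 51.4 CPM in DMSO, 34.82 and 35.03 after 13 h, then 36.2 and 33.3 after 25 h. It fell by 29.3% and fell by 29.7% (adjusted p = 2.63e-05 and 4.32e-05, edgeR), with all Tm libraries below DMSO. The accessory subunit Ndufa1 fell further, from 289.6 and 259.3 CPM in DMSO to 173.0 and 172.1 after 13 h and 116.4 and 148.1 after 25 h (log2 change -1.05, SE 0.083, adjusted p = 1.26e-07). Ndufa3, another accessory subunit, was at 583.9 and 519.2 CPM in DMSO, 384.5 and 367.7 after 13 h, then 235.9 and 309.0 after 25 h (-1.02, SE 0.092). For both accessory subunits, the groups stepped down without overlap, and the 25 h libraries stood further apart than the 13 h libraries.

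A few accessory subunits of complex I took another course. Ndufa10 was at 117.5 and 122.6 CPM in DMSO, 109.9 and 109.1 after 13 h, then 134.9 and 140.4 after 25 h, so it fell slightly at 13 h (log2 change -0.13, adjusted p = 0.0332, edgeR) and rose at 25 h (0.20, adjusted p = 0.00354). Ndufb5 was at 357.2 and 360.9 CPM in DMSO, 326.8 and 326.2 after 13 h, then 382.2 and 396.4 after 25 h (-0.14 and 0.12, adjusted p = 0.0193 and 0.0405). Ndufb11 was at 222.2 and 228.1 CPM in DMSO, 226.1 and 229.3 after 13 h, then 243.1 and 260.1 after 25 h (0.16 at 25 h, adjusted p = 0.0128). These changes were small, and calls were lost under some alternatives: for Ndufa10, 6 of 16 at 13 h and 2 of 16 at 25 h, and for Ndufb5, 13 of 16 at 25 h. Leaving out either 13 h library or DMSO replicate 2 ended the 13 h call of Ndufa10, leaving out DMSO replicate 1 its call at 25 h, and leaving out any single library the 25 h call of Ndufb5. The 13 h call of Ndufb5 was lost without DMSO replicate 2 and without 13 h replicate 2, and the 25 h call of Ndufb11 without either DMSO library and without 25 h replicate 2. At 13 h the change of Ndufb11 was 0.02 (adjusted p = 0.805, edgeR), and its sign turned under some alternatives.

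All 4 genes of complex II, succinate dehydrogenase, fell at both times in enterocytes. Sdha, the flavoprotein that oxidises succinate, went from 262.4 and 268.7 CPM in DMSO to 189.3 and 187.7 after 13 h and 193.5 and 185.8 after 25 h, so it fell by 29.0% and fell by 28.6% (adjusted p = 6.62e-07 and 8.53e-07, edgeR). The membrane anchor Sdhd was at 172.0 and 180.6 CPM in DMSO, 126.2 and 138.8 after 13 h, then 153.6 and 149.7 after 25 h. It was higher at 25 h than at 13 h (log2 change 0.19, adjusted p = 0.0236) but still below DMSO. The other anchor, Sdhc, went from 168.3 and 171.8 CPM to 131.3 and 127.7 after 13 h and 126.6 and 132.8 after 25 h. The iron-sulfur subunit Sdhb moved least, from 321.8 and 335.1 CPM to 284.3 and 295.0 and then 295.2 and 277.1 (-0.18 and -0.20), and its groups still did not overlap with DMSO. In goblet cells 1 of the 4 genes, Sdha, fell at each time and 3 did not pass, where 11.5% and 16% of all genes fell. Its goblet call at 13 h was lost without any 1 of the DMSO or 13 h libraries. The call at 25 h was lost with DESeq2 and with cells thinned to 5000 UMIs. Complex II is the only complex encoded wholly in the nucleus.

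Complex III, the cytochrome bc1 complex, had 6 of 8 genes lower at 13 h and 7 at 25 h. Uqcr11, a small subunit, was at 727.3 and 678.9 CPM in DMSO, 438.6 and 446.3 after 13 h, then 331.0 and 409.8 after 25 h, so it fell by 37.1% and fell by 47.3% (adjusted p = 4.37e-06 and 1.55e-07, edgeR). The Rieske iron-sulfur protein Uqcrfs1 fell by 0.37 and 0.32 on the log2 scale and the core protein Uqcrc1 by 0.42 and 0.32. Uqcrq, which encodes another small subunit, took another course. It was at 1247 and 1216 CPM in DMSO, 1566 and 1568 after 13 h, then 1237 and 1423 after 25 h, so it rose by 27.2% at 13 h (adjusted p = 0.000159), and at 25 h the change of 0.11 did not pass (adjusted p = 0.119). In the same enterocytes, then, Uqcrq and Uqcr11 of 1 complex moved apart at 13 h.

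Complex IV, cytochrome c oxidase, had 8 of 13 tested genes lower at 13 h and 10 at 25 h. Cox6c went from 1634 and 1542 CPM in DMSO to 1109 and 1110 after 13 h and 789.2 and 1004 after 25 h (log2 change -0.52 and -0.82). Cox6b1 went from 1647 and 1622 to 1193 and 1141, then 954.6 and 1107 CPM. Both encode small subunits, and their 25 h libraries differed more from each other than their 13 h libraries did. Cox8a, the general form of another small subunit, went from 3835 and 3798 CPM to 3245 and 3107 and then 2668 and 3211. Cox7b went from 634.5 and 644.0 CPM to 576.0 and 561.0 and then 536.9 and 611.3 (-0.17 and -0.15), a small fall whose calls were lost without either DMSO library, without 13 h replicate 2 for 13 h and without 25 h replicate 1 for 25 h. Cox4i1, the largest nuclear-encoded subunit, was at 2442 and 2528 CPM in DMSO, 2362 and 2333 after 13 h, then 2419 and 2446 after 25 h. Its changes of -0.08 (SE 0.041) and -0.03 (SE 0.041) did not pass the test (adjusted p = 0.116 and 0.561, edgeR), and the sign at 25 h turned to 0.015 when libraries were scaled by total counts. Ndufa4, first assigned to complex I and now counted in complex IV, rose at 13 h from 190.9 and 184.3 CPM to 218.8 and 212.7 (0.20, adjusted p = 0.00336) and was at 170.6 and 183.2 at 25 h. The 13 h call of Ndufa4 was lost without DMSO replicate 2 and without 13 h replicate 1.

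Of the muscle-type paralogues of complex IV, Cox6a2 rose and Cox7a1 fell. Cox6a2 gave 6 and 4 UMIs over all enterocytes of the DMSO libraries, 62 and 100 after 13 h, then 70 and 69 after 25 h, in 5, 4, 45, 66, 50 and 51 cells. On the CPM scale these were 0.352, 0.244, 5.09, 7.52, 8.81 and 7.95, a log2 change of 4.36 (SE 0.340, adjusted p = 1.34e-07, edgeR) at 13 h and 4.76 (SE 0.341, adjusted p = 4.47e-08) at 25 h. The difference between 13 h and 25 h did not pass (adjusted p = 0.182). With each cell thinned to 5000 UMIs, Cox6a2 was seen in 0.194% and 0.195% of enterocytes in DMSO, 2.64% and 3.47% after 13 h, then 4.25% and 3.61% after 25 h, and without thinning in 0.478%, 0.386%, 6.56%, 9.09%, 11.7% and 11.4%. Goblet cells gave 0 UMIs in both DMSO libraries (0 of 105 and 0 of 109 cells, which allow shares of up to 2.86% and 2.75% of cells with a UMI), 3 and 3 after 13 h, then 5 and 6 after 25 h, too few for a test. After thinning, goblet cells with a Cox6a2 UMI made up 0%, 0%, 0%, 1.43%, 2.08% and 3.66% of the 6 libraries in the same order. Those above 0 were 1 of 70, 2 of 96 and 3 of 82 cells, too few to rank the classes at 25 h.

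The ubiquitous form Cox6a1 fell over the same times, from 1403 and 1432 CPM in DMSO to 1191 and 1172 after 13 h and 953.7 and 1014 after 25 h. Cox6a2 made up 0.0251% and 0.0171% of the UMIs of the pair in DMSO and 0.915% (95% exact binomial interval 0.714 to 1.15) and 0.778% (0.606 to 0.984) at 25 h, so Cox6a1 gave over 99% of them throughout. These intervals cover counting error only. Itgad, which overlaps Cox6a2 on the opposite strand, had 0 UMIs in every library of both classes. Of the striated muscle markers, Myh7, Myh1, Tnnt3 and Myl2 were at 0 UMIs in every enterocyte library, Ckm at 2 or fewer, and the 8 markers together gave 90.5 and 99.5 CPM, without the trimmed-mean scaling, in DMSO, 42.8 and 43.0 after 13 h, then 45.4 and 52.8 after 25 h, mostly from Acta1. Myoglobin (Mb) gave 4.76 and 4.596 CPM in DMSO and 7.60 and 8.83 at 25 h, whereas Tnnt2 gave 8.55 and 8.06 in DMSO and 5.03 and 4.13 at 25 h. Of the 3 striated muscle markers tested in enterocytes, 1 rose and 2 fell at 25 h. The brown fat markers Ucp1, Adipoq and Plin1 were at 0 in all enterocyte libraries.

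Cox7a1 was at 118.1 and 115.3 CPM in enterocytes in DMSO, 70.1 and 70.2 after 13 h, then 31.8 and 35.8 after 25 h. It fell by 39.9% and fell by 70.9% (adjusted p = 4.92e-08 and 2.91e-11, edgeR), and the fall from 13 h to 25 h passed as well (adjusted p = 1.38e-07). The general form Cox7a2 fell less, from 1294 and 1283 CPM to 1025 and 974.1 and then 844.1 and 975.2. The share of Cox7a1 in the pair went from 8.36% and 8.24% in DMSO to 6.40% and 6.72% after 13 h and 3.63% and 3.54% after 25 h. In goblet cells Cox7a1 was at 37.5 and 57.6 CPM in DMSO, 17.2 and 24.5 after 13 h, then 8.71 and 13.9 after 25 h (log2 change -1.19 and -2.09), from 74 UMIs or fewer a library. The goblet call at 13 h was lost without DMSO replicate 2 and without 13 h replicate 1.

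Cox7a2l, known as a factor that joins complexes III and IV into supercomplexes, went the other way from its 2 relatives. In enterocytes it was at 492.9 and 538.1 CPM in DMSO, 538.2 and 539.5 after 13 h, then 766.0 and 778.6 after 25 h (log2 change 0.58, SE 0.049, adjusted p = 2.34e-07, edgeR). The 13 h change of 0.06 did not pass, and its sign turned to -0.015 without DMSO replicate 1. Cox7a2l in goblet cells was at 284.6 and 301.5 CPM in DMSO, 388.3 and 396.9 after 13 h, then 662.2 and 666.8 after 25 h, a 2.27-fold rise (adjusted p = 2.55e-08). Its rise in goblet cells at 13 h (0.42, adjusted p = 0.00658) was lost without DMSO replicate 1. The 25 h libraries stood above all others in both classes. Atp5s, a coupling factor of the ATP synthase, rose in enterocytes from 4.64 and 6.11 CPM to 7.06 and 7.89 after 13 h and 10.3 and 10.8 after 25 h (0.98, SE 0.166, adjusted p = 0.000209).

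**Figure D3:**
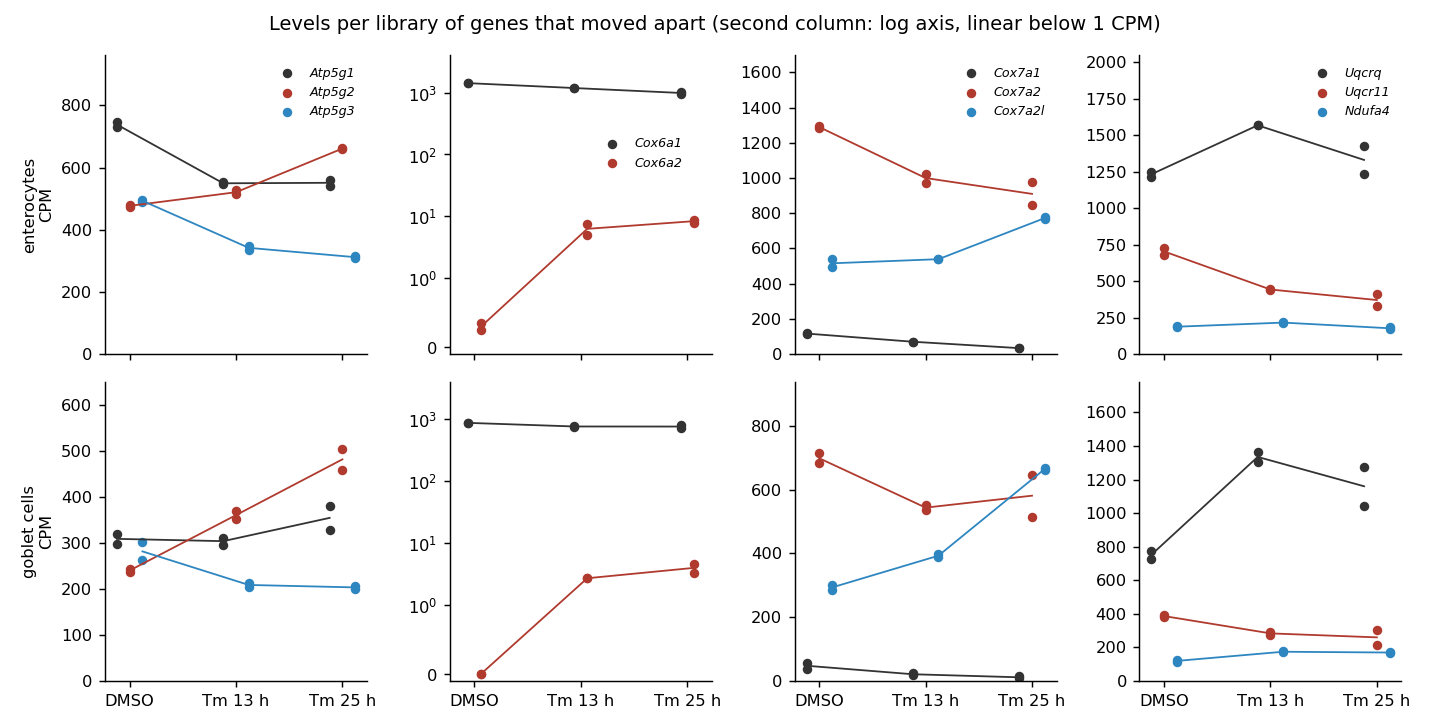
CPM (y axis, linear from 0 except for the second column, which is logarithmic above 1 CPM) in each library by treatment, for enterocytes (top) and goblet cells (bottom). Points are libraries and lines join group means; Atp5g2, Cox6a2 and Cox7a2l rose from DMSO to 25 h in enterocytes while Atp5g1, Atp5g3, Cox6a1, Cox7a1, Cox7a2 and Uqcr11 fell.

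Complex V, the ATP synthase, had 14 of 16 genes lower at 13 h and 15 at 25 h. The 5 genes of its catalytic F1 head (Atp5a1, Atp5b, Atp5c1, Atp5d and Atp5e) fell at both times. Atp5b, which forms the catalytic sites, was at 1531 and 1615 CPM in DMSO, 1246 and 1228 after 13 h, then 1260 and 1276 after 25 h. Atp5k, Atp5mpl and Atp5j2 had the lowest changes of the complex. Atp5k, subunit e, was at 521.2 and 459.6 CPM in DMSO, 304.0 and 303.6 after 13 h, then 219.8 and 297.1 after 25 h (log2 change -0.92, SE 0.098, adjusted p = 2.70e-06, edgeR). Atp5mpl fell by 0.87 and Atp5j2 by 0.81 at 25 h.

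Atp5g1, Atp5g2 and Atp5g3 encode precursors that give the same mature c subunit of the membrane ring, and they parted under Tm. Atp5g2 was at 473.7 and 480.2 CPM in DMSO enterocytes, 514.8 and 526.9 after 13 h, then 659.4 and 663.1 after 25 h (log2 change 0.47, SE 0.043, adjusted p = 5.87e-07, edgeR). Atp5g3 was at 495.9 and 490.6, then 348.3 and 335.3, then 309.5 and 314.1 CPM (-0.66, SE 0.045, adjusted p = 2.58e-08). Atp5g1 was at 729.4 and 747.3, then 552.2 and 546.8, then 540.8 and 561.4 CPM (-0.42, SE 0.044). As a share of the UMIs of the 3 genes, Atp5g2 went from 27.9% and 27.9% in DMSO to 36.4% and 37.4% after 13 h and 43.7% and 43.1% after 25 h. In goblet cells its share went from 30.2% and 27.7% to 42.5% and 40.1% and then 46.2% and 46.5%. In both classes Atp5g2 gave the largest share of these UMIs at 25 h, where Atp5g1 had done so in DMSO. The rise of Atp5g2 in enterocytes at 13 h was small (0.13, adjusted p = 0.0255) and its call was lost without any 1 of the DMSO or 13 h libraries. The treatment of reads shared between paralogues was not stated in the labels.

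No RefSeq promoter was found for Uqcrq, which rose at 13 h where Uqcr11 fell. The promoters of the 3 paralogues and of Uqcr11 are printed because they belong to genes of 1 product, or 1 complex, that moved in different directions. They run from 250 bases before to 50 bases after the RefSeq start on GRCm38.p6, and capitals mark matches to the motif cores listed after them.
Atp5g1 (chr11:96075582-96075881, minus strand): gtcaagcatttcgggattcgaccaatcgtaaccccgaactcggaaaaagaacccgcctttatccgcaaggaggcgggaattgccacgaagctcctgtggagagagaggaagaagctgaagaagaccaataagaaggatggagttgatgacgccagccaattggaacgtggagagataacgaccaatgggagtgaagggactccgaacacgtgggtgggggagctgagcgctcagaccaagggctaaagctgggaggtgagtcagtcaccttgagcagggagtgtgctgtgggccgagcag
Atp5g2 (chr15:102670998-102671297, minus strand): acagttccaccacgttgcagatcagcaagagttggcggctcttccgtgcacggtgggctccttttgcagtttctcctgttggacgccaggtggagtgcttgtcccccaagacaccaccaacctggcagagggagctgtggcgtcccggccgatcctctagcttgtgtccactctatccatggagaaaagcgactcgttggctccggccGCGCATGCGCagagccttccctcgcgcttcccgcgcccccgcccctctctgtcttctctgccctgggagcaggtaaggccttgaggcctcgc
Atp5g3 (chr2:73911277-73911576, minus strand): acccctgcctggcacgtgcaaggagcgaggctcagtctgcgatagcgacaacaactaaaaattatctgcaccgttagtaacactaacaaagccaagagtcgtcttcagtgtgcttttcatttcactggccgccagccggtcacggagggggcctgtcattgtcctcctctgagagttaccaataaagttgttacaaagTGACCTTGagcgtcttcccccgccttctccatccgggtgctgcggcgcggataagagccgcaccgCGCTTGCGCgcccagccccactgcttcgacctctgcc
Uqcr11 (chr10:80406772-80407071, minus strand): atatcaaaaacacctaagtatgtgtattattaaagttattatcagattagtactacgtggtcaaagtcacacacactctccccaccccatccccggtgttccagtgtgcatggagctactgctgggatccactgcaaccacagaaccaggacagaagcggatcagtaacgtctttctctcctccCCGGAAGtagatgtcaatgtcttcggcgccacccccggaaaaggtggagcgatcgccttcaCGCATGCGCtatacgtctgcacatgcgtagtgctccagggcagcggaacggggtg

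Both strands were searched for the cores of NRF1 (GCGCANGCG), ETS/GABP factors (CCGGAAG), YY1 (AAGATGGCG), estrogen-related receptors (CAAGGTCA) and the composite element of ATF4 with a C/EBP partner (TGATGNAA). NRF1, GABP and the estrogen-related receptors are known regulators of respiratory genes. A RefSeq promoter was found for 66 of the 84 genes, and for none of Cox6a2, Uqcrq and Atp5s, which rose in enterocytes. The NRF1 core was in 20 of the 66 (30.3%), against 7.03% of all genes with a promoter and 15.96% of the other genes tested in enterocytes. The ETS/GABP core was in 24.2%, against 9.93% and 21.7%, the YY1 core in 10.6%, against 1.64% and 3.88%, and the receptor motif in 6.06%, against 1.76% and 1.247%. The ATF4 element was in none of the 66 windows, against 4.51% of all genes and 2.77% of the other genes tested. Of the 6 genes with a promoter that rose at either time in enterocytes, only Atp5g2 held 1 of these cores. It was an NRF1 core read on both strands at overlapping positions. Of the 55 that fell at 25 h, 18 held an NRF1 core, 16 an ETS/GABP core, 6 a YY1 core and 4 the receptor motif. The windows of Cox7a1, Cox7a2l and Ndufa4 held none of the 5 cores, and Atp5g3 held an NRF1 core and a receptor motif.

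Between 13 h and 25 h the genes split: 13 were higher at 25 h (10.4% of all genes were) and 19 lower (10.9%), with a median of -0.02. Higher at 25 h were Cox7a2l (log2 difference 0.52), Atp5s (0.50), Atp5g2 (0.34) and Ndufa10 (0.33), and lower were Cox7a1 (-1.05), Ndufa3 (-0.46), Ndufa1 (-0.38), Ndufv3 (-0.34) and Cox6c (-0.31). The counts for this step moved with single libraries: the number lower was 8 without 13 h replicate 1, 10 without 13 h replicate 2, 10 without 25 h replicate 1 and 33 without 25 h replicate 2, and the number higher was 6 without 13 h replicate 1 and 8 without 13 h replicate 2.

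Replicates differed along transcript length. Among the 76 genes above a mean of 20 CPM, the difference between 25 h replicate 1 and replicate 2 in enterocytes correlated with the median length of the transcripts (Spearman rho 0.66, Pearson r 0.63), and that between the DMSO replicates in the opposite sense (rho -0.69, r -0.64). Between the 13 h replicates the correlation was weaker (rho -0.20, r -0.23). These correlations run across genes measured in the same 2 libraries, and genes are not replicates. The 12 genes with transcripts up to 500 bases had a median change of -0.52 at 13 h and -0.78 at 25 h, the 39 with over 500 and up to 1000 bases -0.22 and -0.31, and the 25 above 1000 bases -0.35 and -0.25. In the same length classes, the other genes had medians of -0.10 and -0.15 (46 genes), 0.07 and 0.13 (551 genes), and -0.01 and -0.02 (4322 genes). Between the 25 h replicates themselves, the 12 short genes differed by a median of -0.29. The steepest falls named above, Ndufa1, Ndufa3, Uqcr11, Atp5k and Cox7a1, were all in the shortest class, and the part of this length trend in their size was not tested. Over the 16 alternatives run, which include leaving out each library, the change of Ndufa1 at 25 h ranged from -1.24 to -0.91 and that of Atp5k from -1.16 to -0.75.

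**Figure D4:**
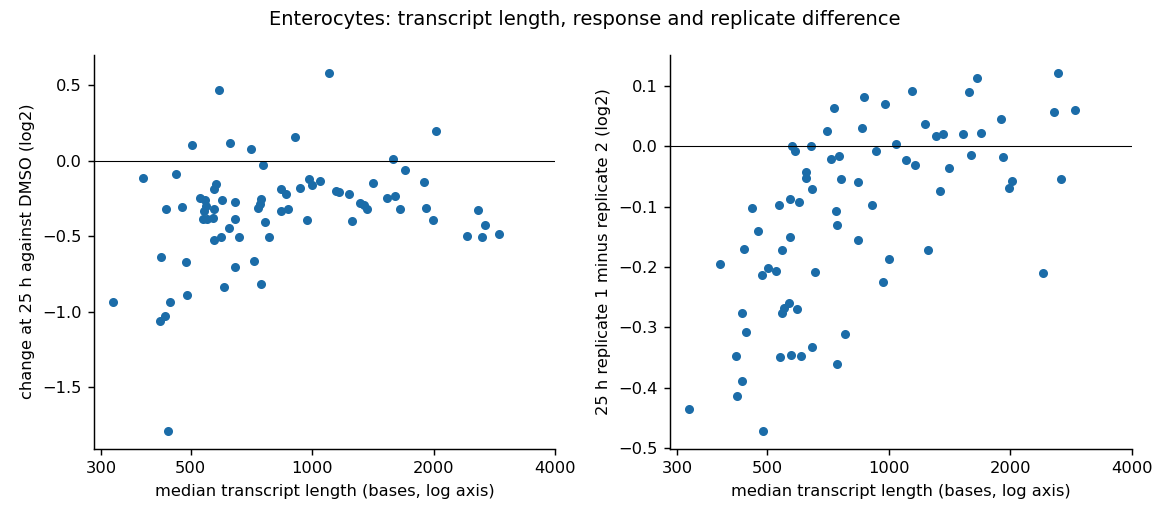
Median annotated transcript length (x axis, log scale) against the log2 change at 25 h from DMSO (left) and the log2 difference between the 2 libraries at 25 h (right), for the 76 genes with a mean of at least 20 CPM in enterocytes. Each point is a gene; the 12 genes with transcripts up to 500 bases had medians of -0.78 on the left and -0.29 on the right.

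In DMSO 74 of 78 genes were lower in goblet cells than in enterocytes of the same libraries, and none was higher, where 18.1% of all genes were lower and 17% higher. The median log2 difference of the 78 was -0.67, against -0.02 over all 10458 genes tested. Cox7a1 (-1.19), Atp5g1 (-1.16) and Ndufb6 (-1.06) differed most among those called. Ndufv3 (-0.10, adjusted p = 0.331, edgeR) and Atp5j (-0.15, adjusted p = 0.0755) did not pass, nor did the rarely counted Cox6a2 and Atp5s. Goblet markers took 19.7% and 18.3% of goblet UMIs in DMSO, 11.4% and 12.2% after 13 h, then 7.96% and 9.60% after 25 h. Scaling by total counts instead of the trimmed mean moved the median of all genes by 0.15 at 13 h and 0.13 at 25 h in goblet cells and by -0.18 in this contrast of classes.

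In goblet cells fewer of the genes passed the test: at 13 h 17 of 76 fell (11.5% of all genes did) and 4 rose (10.8%), and at 25 h 17 fell (16%) and 6 rose (15.8%). The medians were -0.19 and -0.08. Within the goblet class the summed enterocyte markers went from 0.394% and 0.338% of UMIs in DMSO to 0.233% and 0.212% after 13 h and 0.216% and 0.146% after 25 h, with 6 of the 8 tested lower at each time. The median mitochondrial share of goblet cells went from 4.40% and 4.45% to 3.27% and 3.69% and then 2.86% and 3.00%. The part of either in the goblet changes was not tested. The fallers at 25 h included Cox7a1 (log2 change -2.09), Ndufa3 (-0.94), Atp5k (-0.84), Ndufa1 (-0.70) and Sdha (-0.55), and the risers were Cox7a2l (1.18), Atp5g2 (1.00), Uqcrq (0.62), Ndufa4 (0.50), Ndufa10 (0.48) and Ndufb9 (0.38). None of the 7 core genes of complex I passed the test in goblet cells at either time. Their median change there was -0.25 at 13 h and 0.03 at 25 h, beside -0.35 and -0.25 in enterocytes. The difference in response between the classes, tested below, passed for none of these 7 genes at either time. The classes differed in depth, with goblet sums of 1052495 to 1425291 UMIs a library against 7760117 to 17429023 in enterocytes, and the biological coefficient of variation was 0.0788 in goblet cells against 0.0418 in enterocytes. The number that fell at 13 h depended on every library compared, with 6 without DMSO replicate 1, 6 without DMSO replicate 2, 5 without 13 h replicate 1 and 6 without 13 h replicate 2, and 6 with total-count scaling. The number that rose at 13 h was 2 without DMSO replicate 1. At 25 h the number that fell was 11 without DMSO replicate 2 and 11 without 25 h replicate 1, and with total-count scaling 15 rose. Among the 25 h calls named here, those of Ndufa10 were lost without DMSO replicate 1 or either 25 h library, that of Ndufa4 without DMSO replicate 1, and that of Ndufa1 without 25 h replicate 1. From 13 h to 25 h, 2 genes passed in goblet cells, both higher: Cox7a2l (log2 difference 0.76) and Atp5g2 (0.42), where 2.04% of all genes were higher and 1.47% lower.

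The difference in response between the classes was tested in a fit of both classes with the library as a block. At 13 h the change was higher in goblet cells for 2 of 78 genes, Uqcrq (by 0.44 on the log2 scale) and Atp5g2 (by 0.42), and lower for none, where 1.48% of all genes were higher and 3.34% lower. At 25 h it was higher for 8 and lower for none, against 2.55% and 4.46% of all genes. The 8 were Atp5g1, Cox7a2l, Ndufa4, Ndufa5, Atp5g2, Uqcrq, Ndufb10 and Ndufb2. Uqcrq shows the pattern at 13 h, with a rise in goblet cells from 729.1 and 774.3 CPM to 1307 and 1362 (77.5%) beside 27.2% in enterocytes. Of the accessory subunits of complex I, Ndufb10 fell in enterocytes from 354.3 and 378.4 CPM to 301.8 and 288.9 at 25 h and was at 178.9 and 197.9 in DMSO goblet cells and 209.1 and 224.6 at 25 h. Atp5g1 was at 298.8 and 319.4 CPM in DMSO goblet cells and 328.4 and 381.1 at 25 h, a change of 0.20 that did not pass (adjusted p = 0.1999, edgeR), while it fell in enterocytes. The median difference over the 78 was 0.06 at 13 h and 0.18 at 25 h, against -0.08 and -0.05 over all genes. Single libraries moved these counts. Without DMSO replicate 1, 0 passed at 13 h and 4 at 25 h. Without DMSO replicate 2 the counts were 1 and 13, without 13 h replicate 2 the 13 h count was 1, without 25 h replicate 1 it was 8, and without 25 h replicate 2 the 25 h count was 4. With total-count scaling 11 passed at 13 h and 22 at 25 h.

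**Figure D5:**
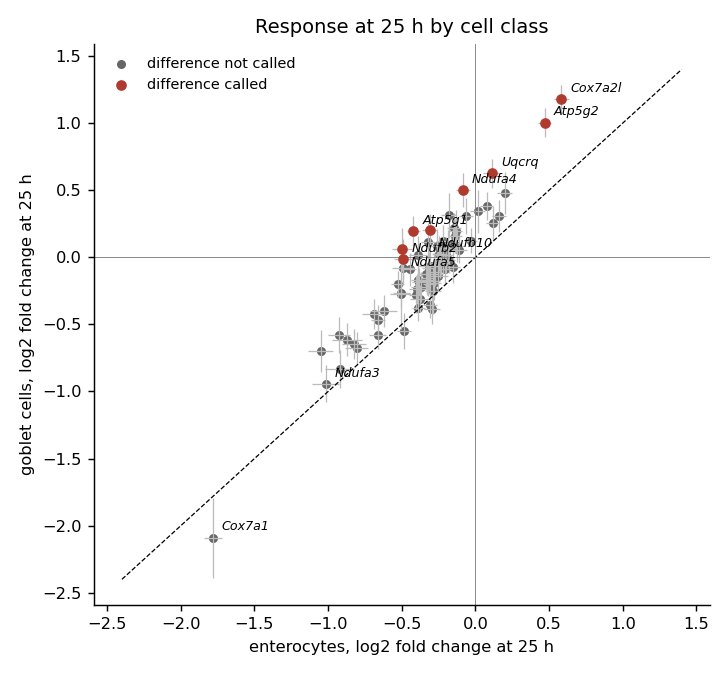
Log2 fold change at 25 h against DMSO in enterocytes (x axis) and goblet cells (y axis) for the genes tested in both, with bars of 1 SE and a dashed line of equal change. Red marks the 8 genes whose change differed between the classes; all lie above the line, with Cox7a2l and Atp5g2 highest, and Cox7a1 lies lowest in both classes.

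Other genes of the respiratory system were counted in enterocytes, with examples chosen after their values were seen. The counts stand beside 23.8% of all genes that rose and 23.8% that fell at 13 h, and 26.1% and 24.2% at 25 h. The 5 subunit or partner genes outside the naming rule (Ndufab1, Cyc1, Cycs, Usmg5 and Atpif1) all fell at both times. Of the 13 messenger genes of the mitochondrial genome, 5 fell and none rose at 13 h, and 9 fell and 1 rose at 25 h. There, mt-Co1 fell by 0.40 and mt-Co2 by 0.32 on the log2 scale, and mt-Cytb rose by 0.13. Of 16 genes of the tricarboxylic acid cycle, 10 fell and 1 rose at 13 h and 9 fell and 3 rose at 25 h, with the pyruvate dehydrogenase gene Pdha1 up by 0.43 at 25 h.

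Assembly factors were counted in the same way, and no difference from the subunits was tested. Over all genes 23.8% rose and 23.8% fell at 13 h, and 26.1% rose and 24.2% fell at 25 h. For complex I, 3 of 16 rose and 1 fell at 13 h, and 7 rose and 1 fell at 25 h, with Tmem126a up by 0.28 and 0.50. For complexes II to V, 5 of 35 rose and 6 fell at 13 h, and 9 rose and 11 fell at 25 h, near the shares over all genes at 25 h. Surf1, needed to assemble cytochrome c oxidase, rose by 0.61 at 25 h, whereas the copper chaperone Cox17 fell by 0.97. The adenine nucleotide carrier Slc25a4, the heart and muscle form, rose 3.21-fold at 25 h (adjusted p = 4.45e-07, edgeR), and Slc25a5 fell by 0.17. Among regulators of mitochondrial biogenesis, the coactivator Ppargc1a fell by 0.87 at 13 h and 0.60 at 25 h and its partner Esrra by 0.36 and 0.27, the only 2 of 13 regulators to fall at either time. At 13 h 7 of the 13 rose, among them Gabpa, Gabpb1 and Nrf1, and at 25 h 3 rose.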

How the data were processed

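The 6 libraries of single-cell 3' RNA hold 2 samples for each of 3 groups. The authors deposited raw UMI counts per gene and cell, with their own class for each cell; Cell Ranger and mm10 are named, per the submitters' processing notes, with version and counting settings not given in the sources used here. Filters of 1000 UMIs, 500 genes and a mitochondrial share of up to 25% kept 5026 of 5122 cells, and no doublet caller was run. Depth was 9432005 to 19539013 UMIs a library. Of 27998 gene identifiers, 27645 matched a GENCODE vM21 symbol.

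Counts were summed per library and class and tested with edgeR 4.0.16 in R 4.3.3 (trimmed mean of M-values, filterByExpr, quasi-likelihood F-test, 3 groups in one fit, Benjamini-Hochberg at 0.05). Enterocyte and goblet sums were fitted jointly with the library as a block for class differences. DESeq2 1.42.0 served as an alternative, and Python 3.11.15 with scipy 1.17.1 gave the intervals. The package limma 3.58.1 was loaded, and no limma fit was run. The scripts were tested on simulated data. Sets, members and alternatives were chosen with earlier results of these data known. Library values are given for paralogues, the 4 Sdh genes, up to 3 called genes with the lowest and the highest change per complex and time, genes that rose, and up to 4 per time whose response differed between classes; other genes were named after their values were seen. Same-numbered libraries did not deviate together (correlations of -0.03 to 0.01 over all genes tested, and of -0.45 to 0.13 over those of the 84 genes that were tested). Values of some single genes are not reported here.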

Additional observations from a re-analysis of the deposited data

Results flagged for a closer look

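For 10 results the test of the difference itself found another response in goblet cells than in enterocytes; each value is the log2 change in goblet cells minus that in enterocytes, with the adjusted p of edgeR's test. At 13 h these were Uqcrq (0.44, adjusted p = 0.00163) and Atp5g2 (0.42, adjusted p = 0.0212). At 25 h they were Atp5g1 (0.58, adjusted p = 0.000335), Cox7a2l (0.56, adjusted p = 0.000271), Ndufa4 (0.55, adjusted p = 0.00481) and Ndufa5 (0.52, adjusted p = 0.00935). The others at 25 h were Atp5g2 (0.49, adjusted p = 0.00260), Uqcrq (0.47, adjusted p = 0.000451), Ndufb10 (0.47, adjusted p = 0.00786) and Ndufb2 (0.44, adjusted p = 0.0431).

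Uqcrq, Atp5g2 and Cox7a2l are higher in both classes at 1 or more times and rose more in goblet cells, while Atp5g1, Ndufb10, Ndufa5 and Ndufb2 fell in enterocytes and did not pass the test in goblet cells. The difference for Uqcrq at 13 h was lost without DMSO replicate 1, that for Atp5g2 at 13 h without any 1 of the DMSO or 13 h libraries, and that for Atp5g2 at 25 h without 25 h replicate 2. Those for Ndufa4, Ndufa5, Ndufb10 and Ndufb2 were lost without DMSO replicate 1, and those for Ndufa5, Ndufb10 and Ndufb2 also without 25 h replicate 2, and for Ndufb2 without DMSO replicate 2. The differences for Cox7a2l, Uqcrq and Atp5g1 at 25 h passed without any single library left out in turn. The summed goblet markers fell from 19.7% and 18.3% of goblet UMIs in DMSO to 7.96% and 9.60% at 25 h, and their part in these differences was not tested.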

How the results depend on the processing

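Of 112 gene-level results under the alternatives run, 1588 values kept their direction and call, 161 kept the direction and lost the call, 5 gained a call and 8 turned sign. Those that turned were small: Cox4i1 at 25 h in enterocytes (0.015 with total-count scaling), Cox7a2l at 13 h (-0.015 without DMSO replicate 1), and Ndufb11 at 13 h (-0.011 with no filter on low counts, -0.0094 with at most 10% mitochondrial UMIs, -0.019 with cells thinned to 5000 UMIs, -0.020 without DMSO replicate 1, -0.015 without 13 h replicate 2 and -0.0039 without 25 h replicate 1). With each library left out in turn, the change at 13 h ranged from -0.020 to 0.017 for Ndufb11 and from -0.015 to 0.109 for Cox7a2l. The cause was not tested.

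Counts of genes that moved by over 1.5 times were as follows. With total-count scaling, 6 fell in goblet cells at 13 h, 15 rose at 25 h, and 11 and 22 had a higher response in goblet cells at 13 h and 25 h. With DESeq2, 3 rose in enterocytes at 13 h, 4 at 25 h and 5 from 13 h to 25 h, and 6 fell in goblet cells at 13 h. With no filter, 29 fell in enterocytes from 13 h to 25 h. With at most 10% mitochondrial UMIs, 3 rose in enterocytes at 13 h and 1 response differed at 13 h. Without the 1% of cells with most UMIs, 8 and 19 responses differed. With thinned cells, 2 rose in enterocytes at 13 h and 6 from 13 h to 25 h, 5 fell and 2 rose in goblet cells at 13 h, and 5 responses differed at 25 h. The summed share in enterocytes was 4.96% in DMSO and 4.31% at 13 h over all deposited cells, 5.23% and 4.48% with at most 10% mitochondrial UMIs, and 4.96% and 4.31% thinned.

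With each library left out in turn, the enterocyte counts ranged from 55 to 69 lower and 3 to 5 higher at 13 h, 60 to 64 and 4 to 7 at 25 h, and 8 to 33 and 6 to 9 from 13 h to 25 h. The goblet counts ranged from 5 to 19 lower and 2 to 4 higher at 13 h and 11 to 21 and 4 to 6 at 25 h. Responses higher in goblet cells ranged from 0 to 8 at 13 h and 4 to 13 at 25 h, and 68 to 75 genes were lower in goblet cells in DMSO.

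Whether a replicate number marks a shared culture is not stated in the sources used here. With the replicate number as a block 61 fell and 5 rose in enterocytes at 13 h, 63 and 6 at 25 h, and 17 and 9 from 13 h to 25 h. In goblet cells 15 fell and 4 rose at 13 h and 17 and 6 at 25 h. DESeq2, fits of only the groups compared and the replicate block were not run for the class comparisons. With 2 libraries a group, goblet sums of 1052495 to 1425291 UMIs and a biological coefficient of variation of 0.0788 against 0.0418 in enterocytes, small changes were harder to detect in goblet cells than in enterocytes.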

Other observations

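The class that the authors call tuft, with 12 to 27 cells a library, entered no comparison. Its 8 tuft markers gave 42 and 25 UMIs in DMSO, against 1260 and 1243 of the 7 enteroendocrine markers. After 13 h these were 127 and 270 against 78 and 192, and after 25 h 99 and 39 against 98 and 419. The enteroendocrine sum was larger in both DMSO libraries and in 25 h replicate 2, where Chgb, Pyy, Gcg and Cck were at 0. Both lists stood above their levels in enterocytes in DMSO, on a CPM scale without the trimmed-mean scaling. Tuft markers were at 51.6 and 78.6 beside 1.78 and 3.40, and enteroendocrine markers at 1548 and 3908 beside 45.4 and 42.1. The markers therefore do not settle the name of the class. The 84 genes took 3.04% and 2.93% of the UMIs of this class in DMSO, 2.98% and 2.81% after 13 h, then 2.61% and 3.05% after 25 h. Cox6a2 was seen in 0 cells of the class in the DMSO and 13 h libraries and in 1 of 13 and 1 of 12 cells at 25 h, with 2 and 4 UMIs.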
